A study of Mus musculus with 16 samples.

Results

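The genes described here encode a nuclear receptor corepressor and the deacetylases and adaptors that work with it or beside it in mouse brain tumours made with or without the histone H3.3 K27M mutation. They are the 9 genes of 23355 in the deposited expression table with the symbols Ncor1, Tbl1x, Tbl1xr1, Hdac3, Hdac1, Hdac2, Hdac4, Hdac5 and Hdac7, and all 9 passed the filter on low values, which kept 15007 genes. They were chosen by measured values, the differences between H3.3K27M and H3.3WT tumours in this table, which were known when the genes were picked, so those differences are given as a description and carry no test.

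RNA was sequenced from 7 H3.3K27M and 9 H3.3WT tumours of C57BL/6 mice. Every mouse carried Nestin Tv-a, which places the receptor of avian RCAS viruses under a promoter of neural progenitor cells, and floxed p53 alleles (p53 fl/fl). On postnatal day 3, all received RCAS viruses carrying PDGFA and Cre, together with either RCAS-H3.3K27M or RCAS-H3.3WT, so that a PDGFA drive and Cre-mediated p53 deletion were common to both groups, and tumour tissue was taken at endpoint. Tumours are bulk tissue and hold uninfected host cells as well as tumour cells. The table numbers its libraries 1 to 16. Libraries 10 to 16 were taken as H3.3K27M and 1 to 9 as H3.3WT from the averages named in the table and the group sizes in the labels, and which tumour a library came from is not given in the sources used here. The series' design text counts 5 tumours with and 3 without the mutation, which differs from the labels. All directions rest on this assignment.

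NCoR1 is a large scaffold protein that nuclear receptors, such as those for thyroid hormone and retinoic acid, bind when they have no activating ligand. With the WD40 proteins TBL1X and TBL1XR1 it holds HDAC3, which removes acetyl groups from histones and is activated by that binding, and transcription of nearby genes is kept low. HDAC1 and HDAC2 are the catalytic subunits of the SIN3, NuRD and CoREST complexes. HDAC4, HDAC5 and HDAC7 are class IIa enzymes with little catalytic activity of their own, which bind MEF2 transcription factors and shuttle between nucleus and cytoplasm under the control of phosphorylation. Histone deacetylases are studied as drug targets in H3 K27M glioma.

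The start regions of Ncor1, Tbl1x and Tbl1xr1 are shown because the 3 highest positive correlations among the 9 genes lay between them, although none passed adjustment, as given further on. With the exon length trend described below removed, these were no longer the highest, and r of Tbl1x with Tbl1xr1 was -0.005. Each runs from 250 bases before to 50 after a RefSeq start in GRCm38.p6, 5′ to 3′ on the gene's strand, at chr11:62457283-62457582 on the minus strand for Ncor1, chrX:77510977-77511276 on the plus strand for Tbl1x and chr3:22076402-22076701 on the plus strand for Tbl1xr1. Capitals mark matches, on either strand, to the GC box letters GGGCGG and to CCGGAAG, an ETS core with its flank. The search also covered a CCAAT box, an NRF1 site, an E-box, a CRE, a TATA box and the nuclear receptor core AGGTCA. None of these occurs in the regions printed.
Ncor1: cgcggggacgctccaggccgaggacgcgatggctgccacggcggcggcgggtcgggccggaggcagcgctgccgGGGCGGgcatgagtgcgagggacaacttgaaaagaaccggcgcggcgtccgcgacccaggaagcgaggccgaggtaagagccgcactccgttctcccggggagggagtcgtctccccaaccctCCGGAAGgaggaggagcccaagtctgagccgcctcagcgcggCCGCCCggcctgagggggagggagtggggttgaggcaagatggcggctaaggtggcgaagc
Tbl1x: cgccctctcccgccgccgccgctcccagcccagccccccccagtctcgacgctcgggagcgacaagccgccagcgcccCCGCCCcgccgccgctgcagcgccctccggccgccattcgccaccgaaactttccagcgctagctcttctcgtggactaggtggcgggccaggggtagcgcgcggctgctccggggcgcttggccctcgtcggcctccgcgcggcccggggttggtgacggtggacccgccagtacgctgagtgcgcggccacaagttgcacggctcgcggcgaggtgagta
Tbl1xr1: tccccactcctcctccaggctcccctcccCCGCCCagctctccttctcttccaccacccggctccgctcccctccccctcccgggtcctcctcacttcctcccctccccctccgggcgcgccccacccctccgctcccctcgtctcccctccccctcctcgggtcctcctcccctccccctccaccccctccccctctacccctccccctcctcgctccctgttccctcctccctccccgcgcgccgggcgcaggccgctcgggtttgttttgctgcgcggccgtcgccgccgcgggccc
All 3 printed regions are rich in CpG. The Ncor1 region holds 36 CpG, 2 GC boxes and 1 CCGGAAG, the Tbl1x region 43 CpG and 1 GC box, and the Tbl1xr1 region 25 CpG and 1 GC box. Among all 32851 RefSeq start regions of the same length, 35.7% hold a GC box, 8.86% hold CCGGAAG, and the median CpG count is 7. Ncor1 has another RefSeq start region, at chr11:62438466-62438765, with 2 CpG and none of the motifs searched. The Ncor1 locus as deposited ends at 62438515, within that region. Which start these tumours use was not tested, so the CpG count of Ncor1 above holds for the printed region only. In all, 11 start regions of 7 of the 9 genes were taken, 2 of them for Ncor1 and 4 for Hdac7. Hdac3 was left out of this search beforehand, and the start regions used held none for Hdac1, so neither absence is a result. Among the deacetylases, the Hdac4 region (chr1:92180292-92180591) has 5 GC boxes and the Hdac2 region (chr10:36974294-36974593) and the Hdac5 region (chr11:102230123-102230422) have 1 each. The Hdac4 and Hdac5 regions also hold 2 CCAAT boxes each (37.4% of all start regions hold one), and the Hdac5 region 1 E-box (7.15%). Of the 4 Hdac7 regions, 1 holds a GC box and 1 holds AGGTCA (16.3% of all start regions), and their CpG counts are 31, 35, 6 and 5. These matches describe letters and do not show that a factor binds there.

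The shallowest library, library 8, held 11439144 reads, and the other 15 held 30377560 to 41730692. Values are the authors' normalized counts, which are reads divided by 1 size factor per library. Differences are H3.3K27M minus H3.3WT on the log2(value + 1) scale, with the standard error (SE) of limma, a linear model fitted over all genes. The 7 oligodendrocyte progenitor markers, which mark the expected tumour cells, summed to 206191 to 499641 normalized counts in H3.3K27M and 149789 to 419977 in H3.3WT libraries. Of the genes of the model, Pdgfa differed by -0.19 ± 0.29, H3f3a by -0.33 ± 0.17 and Trp53 by -0.62 ± 0.24, and reads per gene do not separate mutant from unmutated H3.3 or virus from host transcripts. Over all genes tested, 0% passed limma with Benjamini-Hochberg adjustment at 0.05, 15.3% had an unadjusted p under 0.05, and 50.5% had a positive difference.

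Ncor1 lay higher in most H3.3K27M tumours, Tbl1xr1 slightly higher, and Hdac1, Hdac2, Hdac3 and Hdac5 slightly lower, with overlapping groups for every one of the 9 genes. Of the 9, 4 had a positive and 5 a negative difference. Over all genes, 50.5% were positive and 49.5% negative. None of the 9 passed the adjusted threshold (0% of all genes did), and 1 of 9, Ncor1, had an unadjusted p under 0.05, counts that the choice of the genes already used (15.3% of all genes, 8.7% for higher and 6.61% for lower in H3.3K27M). For 0 of 9 the groups did not overlap (0.0333% of all genes, 0.0267% with H3.3K27M above and 0.00666% with it below). In the authors' deposited table, none of the 9 had an FDR under 0.05, where 1.41% of genes with an FDR were under 0.05. Log2 fold changes of the 9 there ran from -0.25 for Hdac1 to 0.52 for Ncor1. Their FDR values ran from 0.0775 for Ncor1 to 0.954 for Hdac7. These values too describe the contrast on which the genes were chosen and are no test of them. In these bulk samples, fewer cells of a type and less RNA per cell cannot be told apart.

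**Figure D1:**
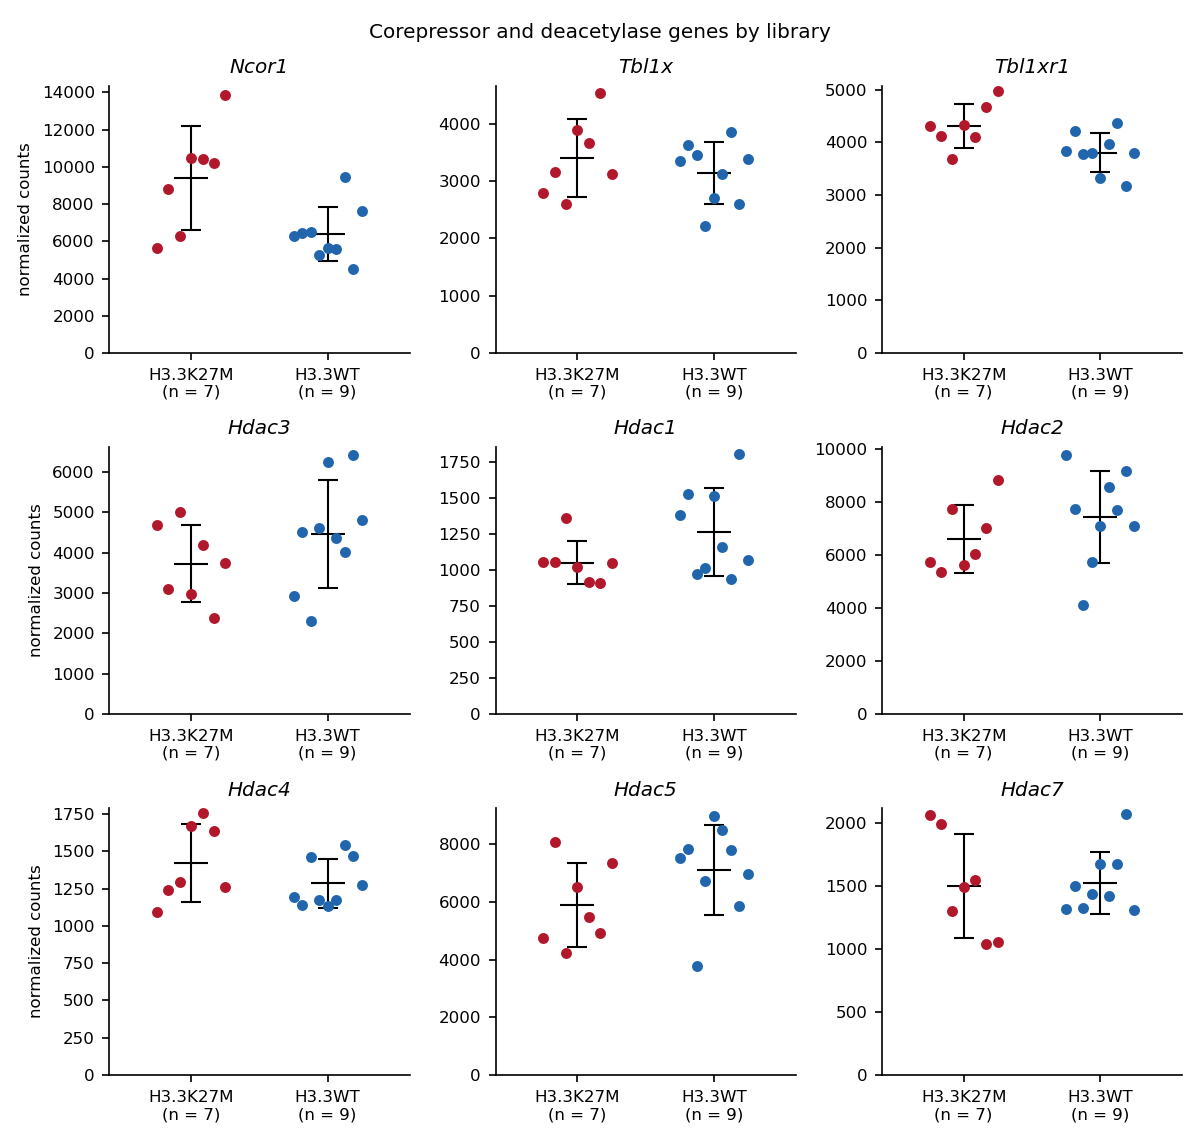
Normalized counts (y axes, linear from 0) of the 9 genes in each library, H3.3K27M (red, 7 libraries) left of H3.3WT (blue, 9 libraries), with mean and SD in black. Ncor1 shows 4 of 7 H3.3K27M libraries above the highest H3.3WT library, and in no panel are the groups apart.

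The scaffold gene Ncor1 (mm10, chromosome 11, 62316426 to 62458541, minus strand) had 5622 normalized counts in the lowest, 10189 in the median and 13879 in the highest H3.3K27M library, against 4523, 6291 and 9440 in H3.3WT libraries. Libraries 13 to 16 lay between 10189 and 13879, above all H3.3WT libraries, whereas H3.3K27M libraries 10 and 12, at 5622 and 6282, lay below the H3.3WT median. The means were 9391 ± 2807 (SD, n = 7) in H3.3K27M and 6374 ± 1445 (SD, n = 9) in H3.3WT tumours, a log2 difference of 0.53 ± 0.18 (SE). The SD within the H3.3K27M group was thus nearly as large as the difference of the means, and the highest of all 16 libraries held 3.07 times the normalized counts of the lowest. Of the gene's exon length, 0.640% is also covered by Pigl on the opposite strand, and 1.02% of 50-base windows of its longest transcript also occur in a processed pseudogene.

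The adaptor genes differed less. Tbl1x (chromosome X, 77511013 to 77662983, plus strand) had 2602 normalized counts in the lowest, 3157 in the median and 4543 in the highest H3.3K27M library, against 2212, 3347 and 3858 in H3.3WT libraries, a log2 difference of 0.11 ± 0.14 (SE). The H3.3K27M median lay below the H3.3WT median although the difference was positive, and libraries 13 and 15, both H3.3K27M, were the highest of all. Tbl1xr1 (chromosome 3, 22076652 to 22216594, plus strand), its close relative, had 3685, 4316 and 4982 in H3.3K27M libraries, against 3174, 3804 and 4362 in H3.3WT libraries (0.18 ± 0.10). For Tbl1xr1, 6 of 7 H3.3K27M libraries lay above the H3.3WT median. Its SD within groups was 0.14 on the log2 scale, and 0.353% of all genes tested had a smaller one, where the median SD was 0.47. The ratio of Tbl1xr1 to Tbl1x counts ranged from 1.03 to 1.59 in H3.3K27M and from 1.10 to 1.72 in H3.3WT libraries, so the balance of the adaptors varied over nearly the same range in each group.

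Hdac3, the deacetylase that NCoR1 activates (chromosome 18), lay on the other side of 0 from Ncor1. It had 2388 normalized counts in the lowest, 3735 in the median and 5000 in the highest H3.3K27M library, against 2301, 4520 and 6410 in H3.3WT libraries, a log2 difference of -0.24 ± 0.21 (SE). Each group spanned more than the gap between them, and only libraries 5 and 8, both H3.3WT, exceeded the highest H3.3K27M library. The ratio of Ncor1 to Hdac3 counts was 1.20 in the lowest, 2.85 in the median and 4.27 in the highest H3.3K27M library, against 0.706, 1.42 and 2.82 in H3.3WT libraries. This ratio differed by 0.77 ± 0.35 (SE) on the log2 scale, and by 0.48 with the exon length trend described below removed, and 5 of 7 H3.3K27M libraries lay above the H3.3WT median.

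The class I genes Hdac1 and Hdac2 encode closely related catalytic subunits of several complexes. Hdac1 (chromosome 4, 129516104 to 129542713, minus strand) had 908, 1051 and 1361 normalized counts in the lowest, median and highest H3.3K27M library, against 939, 1163 and 1810 in H3.3WT libraries (log2 difference -0.24 ± 0.16, SE). Library 12, at 1361, stood above the other 6 H3.3K27M libraries, which lay between 908 and 1058, and 6 of 7 H3.3K27M libraries lay below the H3.3WT median. The Hdac1 counts are uncertain, since 58.7% of the 50-base windows of its longest transcript also occur in other transcripts, chiefly 3 processed pseudogenes, and how such reads were counted is not given in the sources used here. Hdac2 (chromosome 10, 36974544 to 37001889, plus strand) had 5359, 6040 and 8827 in H3.3K27M libraries, against 4118, 7696 and 9803 in H3.3WT libraries (-0.15 ± 0.17). Both the lowest and the highest Hdac2 library, 3 and 1, were H3.3WT. The ratio of Hdac2 to Hdac1 counts had a median of 5.68 in H3.3K27M and 5.64 in H3.3WT libraries.

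Among the class IIa genes, Hdac5 lay lower in most H3.3K27M tumours, and Hdac4 and Hdac7 differed less. Hdac5 (chromosome 11, 102194432 to 102230166, minus strand) had 4212 normalized counts in the lowest, 5456 in the median and 8087 in the highest H3.3K27M library, against 3789, 7518 and 8988 in H3.3WT libraries, a log2 difference of -0.27 ± 0.18 (SE). Of the 7 H3.3K27M libraries, 6 lay below the H3.3WT median, although the lowest of all was the H3.3WT library 3. Hdac4 (chromosome 1, 91928779 to 92195699, minus strand) had 1092, 1292 and 1757 in H3.3K27M libraries, against 1133, 1193 and 1541 in H3.3WT libraries (0.14 ± 0.13). Its 3 highest libraries, 13, 14 and 15, were H3.3K27M. Of its exon length, 22.4% is shared with the antisense gene Gm26720, and without a stated strand setting reads of the pair cannot be told apart. Hdac7 (chromosome 15, 97792664 to 97844502, minus strand), known for its role in vessel integrity, had 1038, 1492 and 2068 in H3.3K27M libraries, against 1313, 1441 and 2071 in H3.3WT libraries (-0.06 ± 0.16). It was spread more widely in H3.3K27M tumours, where 3 libraries lay below the whole H3.3WT group.

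Compared per exon length, the deacetylases stood at both ends of the order. Over all 16 libraries, normalized counts per kb of exon averaged 1585 for Hdac2, 1022 for Hdac3, 749 for Hdac5, 601 for Ncor1, 462 for Tbl1x, 453 for Tbl1xr1, 341 for Hdac1, 224 for Hdac7 and 85.0 for Hdac4. The median of all genes tested was 209 per kb, so only Hdac4 lay below it. Exon length here joins all annotated exons of a gene and exceeds its longest transcript. It was 15813 against 8100 bp for Hdac4, 8780 against 5406 bp for Hdac5 and 3445 against 2038 bp for Hdac1. The order holds for this length only, and levels per transcript length were not computed. Hdac1 counts are also uncertain, as given above. Hdac2 exceeded Hdac3, Hdac1 exceeded Hdac7 and Hdac7 exceeded Hdac4 in 16 of 16 libraries, whereas Hdac5 exceeded Ncor1, and Tbl1x exceeded Tbl1xr1, in only 10 of 16. Those pairs of neighbours did not differ beyond their spread. Ncor1 averaged 733 ± 219 per kb in H3.3K27M (SD, n = 7) and 498 ± 113 in H3.3WT tumours (SD, n = 9), and Hdac5 averaged 671 ± 165 in H3.3K27M and 809 ± 177 in H3.3WT tumours, so that the mean of Ncor1 lay above that of Hdac5 in H3.3K27M tumours but not in H3.3WT tumours.

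**Figure D2:**
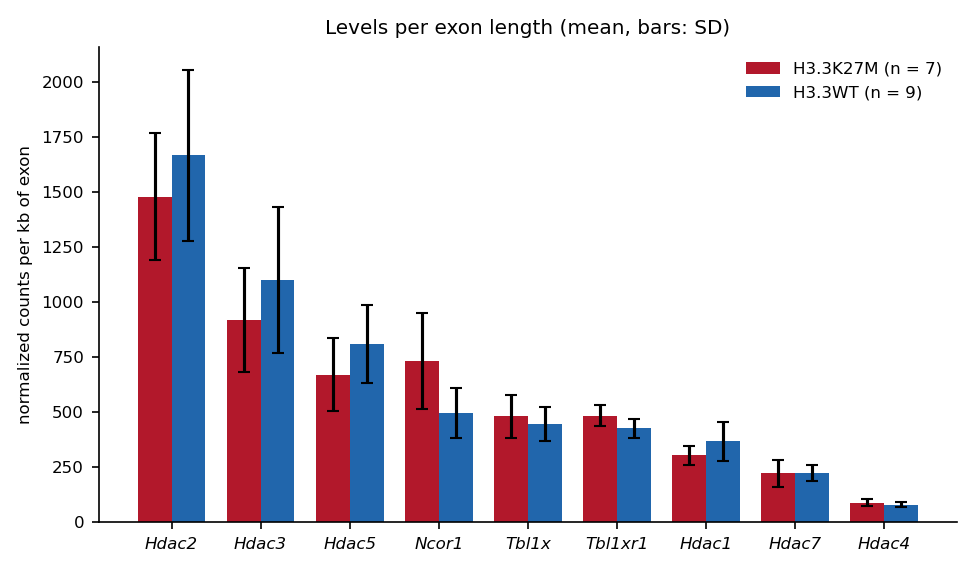
Normalized counts per kb of exon (y axis, from 0) of the 9 genes in falling order of their mean over 16 libraries, with H3.3K27M (red) left of H3.3WT (blue). Bars are means and error bars SD over 7 and 9 libraries, and the span runs from 1585 for Hdac2 to 85.0 for Hdac4.

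The libraries differed in how values depend on exon length, and several of these genes moved with that slope. The slope of log2 values on log2 exon length over all genes, taken relative to the mean over libraries, ranged from -0.05 to 0.23 per doubling of length (median 0.13) in H3.3K27M and from -0.31 to 0.12 (median -0.11) in H3.3WT libraries. With the group means removed, Ncor1, whose exons cover 12811 bp, correlated with the slope at a Pearson r of 0.84 over 16 libraries (Spearman rho 0.82, permutation p = 0.00012 for r and 0.00039 for rho, adjusted p for r over the 9 genes 0.00108). Without libraries 8 and 14, the farthest from the median slope, r was 0.84. Within the groups, r was 0.83 in H3.3K27M and 0.89 in H3.3WT libraries. Long genes follow the slope by construction, as given below. The p-values set r against 0 and are no test of a trait particular to Ncor1.

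In the same order of p for r and for rho, Tbl1x (7052 bp) followed the slope at r = 0.75 (rho 0.78, permutation p = 0.00129 and 0.00126, adjusted p for r 0.00387, r without libraries 8 and 14 of 0.76). Tbl1xr1 (8903 bp) had r = 0.65 but rho = 0.40 (permutation p = 0.00986 and 0.140, adjusted p for r 0.0222, and r = 0.62 without those libraries). Hdac1 (3445 bp) went the other way at r = -0.73 (rho -0.66, permutation p = 0.00077 and 0.005, adjusted p for r 0.00346), and r was -0.59 without the same libraries. The other 5 genes had an adjusted permutation p of 0.0574 or more, with r of 0.54 for Hdac4, -0.56 for Hdac3, -0.37 for Hdac7, -0.33 for Hdac2 and 0.10 for Hdac5. Without libraries 8 and 14 the r of Hdac4 was 0.83. The slope sums up all genes by length, so long genes follow it by construction: the median r was 0.42 for the 1444 tested genes with exons of at least 10000 bp, 0.20 for the 4967 between 5000 and 10000 bp, and -0.16 for the 8585 under 5000 bp. The p-values above set r against 0 and not against genes of like length, so they describe these genes and test no trait of theirs.

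**Figure D3:**
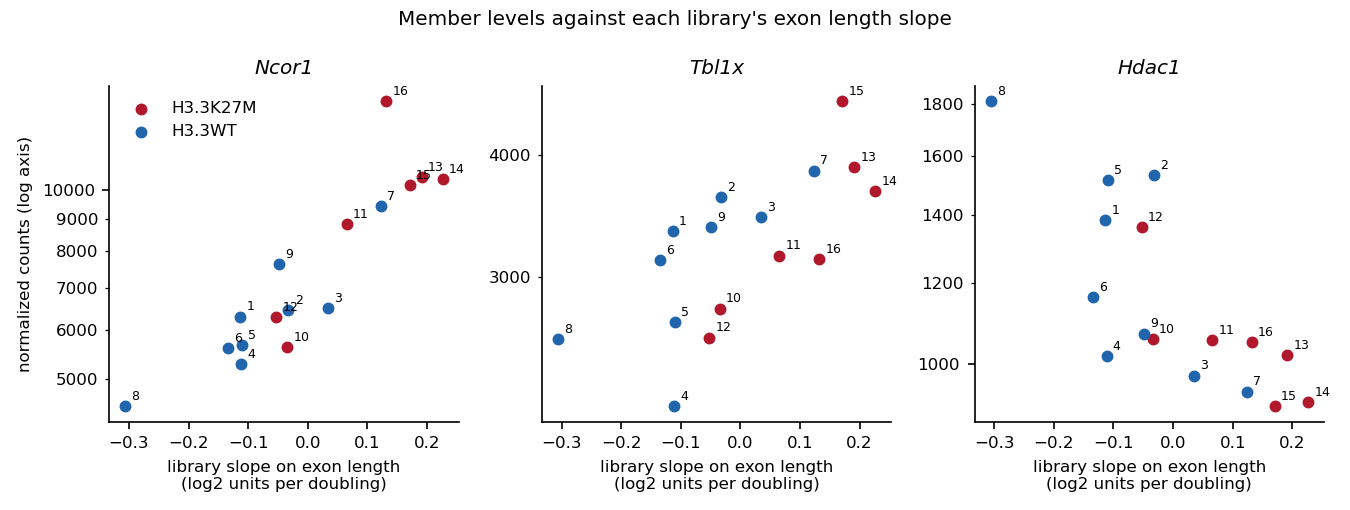
Normalized counts (log y axis) of Ncor1, Tbl1x and Hdac1 against each library's slope on exon length (x axis, log2 units per doubling of length), with library numbers, in H3.3K27M (red) and H3.3WT (blue) libraries. Ncor1 climbs with the slope (r = 0.84 with group means removed), Tbl1x likewise (0.75), and Hdac1 declines (-0.73).

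With the length trend of every library removed, the positive differences shrank. That of Ncor1 was 0.25 ± 0.13 (SE), against 0.53 ± 0.18 before, that of Tbl1x -0.02 ± 0.12 and that of Tbl1xr1 -0.01 ± 0.09. Hdac4, with the longest exons of the 9 at 15813 bp, changed sign to -0.20 ± 0.14. Hdac5 lay farther from 0 at -0.45 ± 0.18, and Hdac1, Hdac2 and Hdac3 stayed between -0.23 and -0.16. On this scale 8 of 9 differences were negative, where 49.5% of all genes had a positive one, and 1 of 9 genes, Hdac5, had an unadjusted p under 0.05 (9.97% of all genes). These counts too describe the contrast on which the genes were chosen and are no test of them. With the trend on GC content removed in its place, Hdac5 moved the other way to -0.12 ± 0.20, Hdac2 lay at -0.27 ± 0.16, Hdac3 at -0.28 ± 0.21 and Hdac1 at -0.24 ± 0.15, so the order of the deacetylases depended on the correction. On the GC-corrected scale Ncor1 lay at 0.51 ± 0.18, Tbl1xr1 at 0.07 ± 0.09, Tbl1x at 0.05 ± 0.14 and Hdac7 at 0.09 ± 0.16. What makes the slopes differ was not tested.

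**Figure D4:**
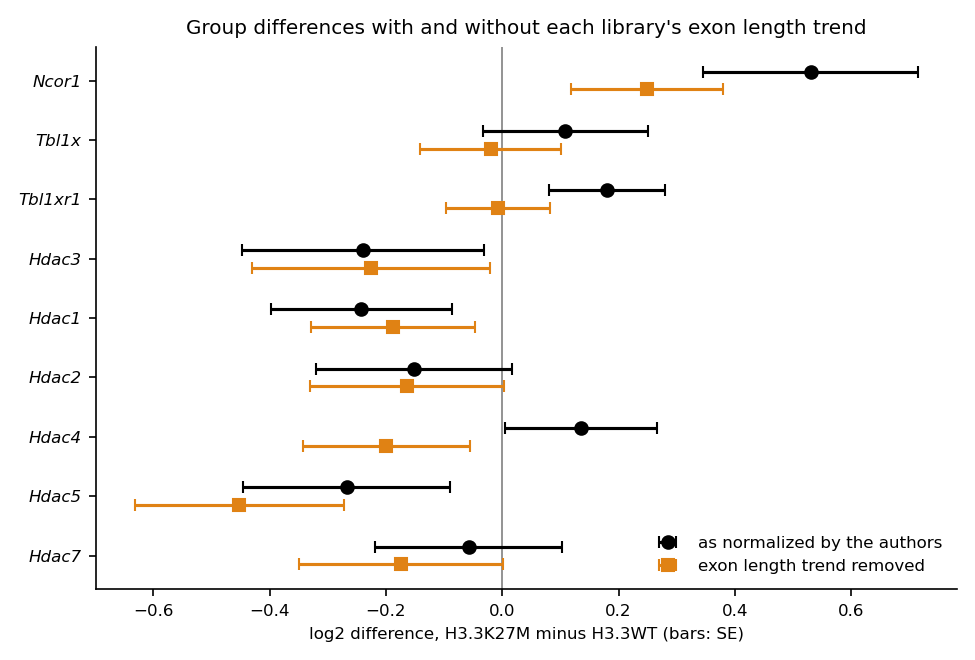
Log2 difference, H3.3K27M minus H3.3WT (x axis), of the 9 genes, from the authors' normalized counts (black circles) and after the exon length trend was removed (orange squares), with bars of 1 SE. Ncor1 moves to 0.25, Hdac4 to -0.20 and Hdac5 to -0.45.

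Variation within the groups was not used to choose the genes, so correlations between them were tested over the 16 libraries with group means removed. Of the 36 pairs, 8 had an unadjusted permutation p under 0.05, each with the same sign within both groups, and 0 passed Benjamini-Hochberg adjustment over the 36. Ncor1 correlated with Tbl1xr1 at r = 0.68 (rho 0.53, permutation p = 0.00489 and 0.0477, adjusted p for r 0.118). It correlated with Tbl1x at r = 0.68 (rho 0.71, permutation p = 0.00655 and 0.00443, adjusted p for r 0.118). Without the libraries farthest from the Ncor1 median, 13 and 16, these r were 0.60 and 0.82.

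Hdac3 and Tbl1x, which share a complex, ran in opposite directions at r = -0.63 (rho -0.65, permutation p = 0.0112 and 0.0111, adjusted p for r 0.135, and -0.57 without libraries 3 and 15). Ncor1 and Hdac1 likewise had r = -0.53 (rho -0.54, permutation p = 0.0212 and 0.0239, adjusted p for r 0.147, and -0.63 without libraries 13 and 16). With the exon length trend removed as well, Ncor1 had r of 0.13 with Tbl1xr1, 0.39 with Tbl1x and -0.22 with Hdac1. Tbl1x and Tbl1xr1 went from r = 0.58 to -0.005. The highest positive r on that scale were 0.54 for Hdac1 with Hdac2, 0.52 for Hdac3 with Hdac7 and 0.52 for Hdac1 with Hdac3 (adjusted permutation p 0.400 each). The pair of Hdac3 and Tbl1x kept r = -0.58, with an adjusted permutation p of 0.400. The count of pairs past the adjusted threshold depended on single libraries: it was 5 without library 4, and 1 without library 10 (Ncor1 and Tbl1xr1, r = 0.80) or library 16 (Ncor1 and Tbl1x, r = 0.83).

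**Figure D5:**
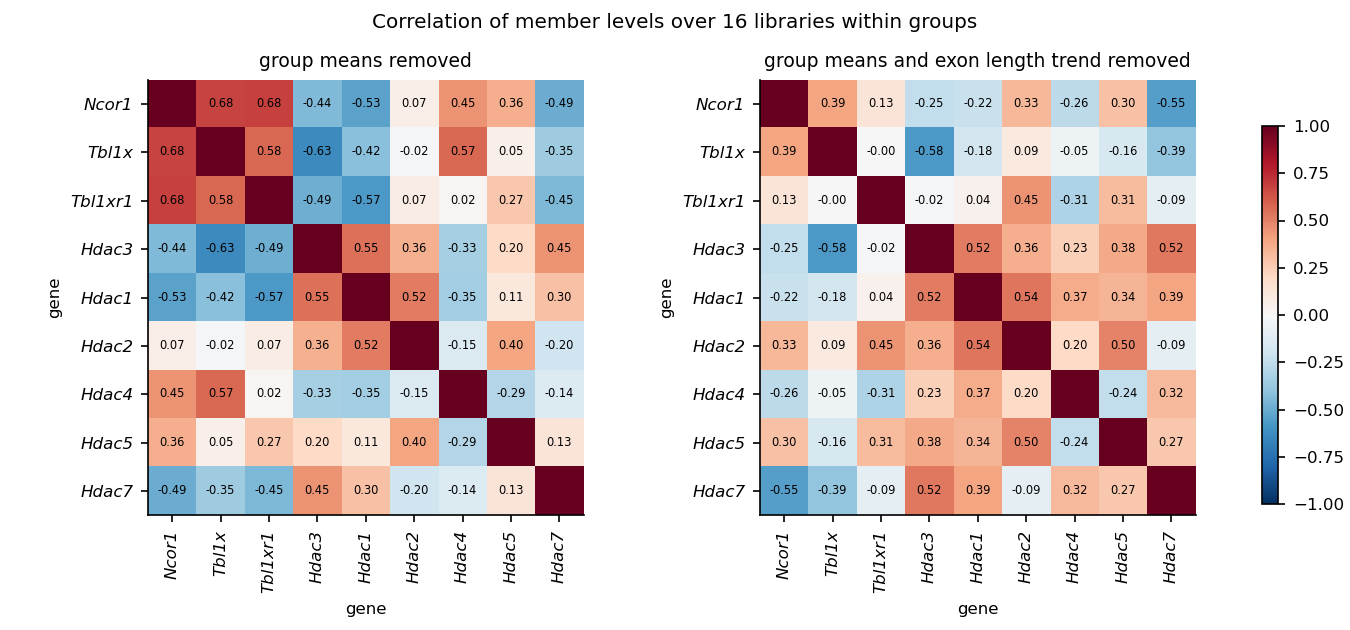
Pearson r between the 9 genes (both axes) over 16 libraries, with group means removed (left) and with each library's exon length trend also removed (right), on a colour scale from -1 to 1. Ncor1, Tbl1x and Tbl1xr1 form a positive block on the left (0.58 to 0.68), whereas their r on the right run from -0.005 to 0.39.

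The genes whose levels ran most like Ncor1 over the 16 libraries, with group means removed, were Stk4, a kinase gene of the Hippo pathway (r = 0.97), Spg11 (0.96), Anapc1, a subunit of the anaphase-promoting complex (0.96), Cnot1, the scaffold of the CCR4-NOT deadenylase (0.94), and Lig3, a DNA ligase gene (0.93). With the length trend removed, r with Ncor1 was 0.90 for Stk4, 0.86 for Spg11, 0.75 for Anapc1, 0.86 for Cnot1 and 0.90 for Lig3. Ranked on that scale, the 5 most similar genes were Lig3, Stk4, Cse1l (0.89), Ckap5 (0.87) and Nup160 (0.87). The 200 genes most like Ncor1 had a median exon length of 8417 bp, against 4424 bp over all genes tested. By this measure Tbl1xr1 ranked 744 and Tbl1x 761 among the 15007 genes tested, both at r = 0.68, where the median r was -0.01. They thus lay well above most genes but outside the 200 most similar. Hdac3, also a partner in the complex, ranked 12820 at r = -0.44.

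The marker genes of other cell types were compared between the groups, and 0 of them passed the adjusted threshold. Over all genes tested, 49.5% had a negative difference and 15.3% an unadjusted p under 0.05. Neuron markers had a median log2 difference of -0.70 over 8 of 8 genes tested (7 lower, 2 at an unadjusted p under 0.05), and their summed level was 3077 to 12857 normalized counts in H3.3K27M, against 3247 to 50603 in H3.3WT libraries. Endothelial markers had a median of -0.38 over 8 of 8 (7 lower, 1 at an unadjusted p under 0.05), with sums of 5062 to 15374 in H3.3K27M and 5635 to 25231 in H3.3WT libraries. Medians were -0.67 for the 8 mature oligodendrocyte, -0.16 for the 7 astrocyte, -0.08 for the 8 microglia and macrophage, -0.27 for the 6 T cell, -2.77 for the 5 blood and 0.18 for the 7 oligodendrocyte progenitor markers tested. Thy1 stood in both the neuron and the T cell list, so their medians, and their scores used below, share a gene. No marker list had a gene past the adjusted threshold or a gene at 0 in all libraries.

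Of the 72 correlations of the 9 genes with the marker scores, 5 had an unadjusted permutation p under 0.05 and 0 passed adjustment over the 72. The smallest p belonged to Hdac7 and the endothelial score, with r = 0.62 (rho 0.70, permutation p = 0.00222 and 0.00229, adjusted p for r 0.160) and r = 0.60 without libraries 4 and 8. Within groups this r was 0.76 in H3.3K27M and 0.68 in H3.3WT libraries, and with the length trend removed it was 0.65 with an adjusted permutation p of 0.0713. Ncor1 had r = -0.50 with the mature oligodendrocyte score (rho -0.49, permutation p = 0.0474 and 0.0592, adjusted p for r 0.682, r without libraries 4 and 6 of -0.51). The other 3 were Hdac7 with the blood score (r = 0.57, adjusted permutation p 0.496), Tbl1x with the endothelial score (r = -0.57, adjusted p 0.496, and -0.39 without libraries 4 and 8) and Hdac2 with the T cell score (r = -0.57, adjusted p 0.496). The part of these cell types in the differences between the tumour groups was not tested.

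Around the 9 genes, 136 others of 10 lists were followed, of which 134 were matched and 133 tested. None passed limma with adjustment over all genes (the smallest adjusted p was 0.257), while 31 of 133 had an unadjusted p under 0.05, 25 of them higher and 6 lower in H3.3K27M tumours. Over all genes tested, 15.3% had one, 8.7% higher and 6.61% lower, and 50.5% had a positive difference. The lists were drawn up with earlier results of these data known. Their counts and p-values, here and below, are therefore a description and no test of the lists. The median difference over the 133 was 0.10, and 0.06 with the length trend removed, against 0.00 over all genes tested.

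The coactivators, which replace the corepressor complex on nuclear receptors once ligand binds, lay mostly higher, with a median of 0.33. Of the 12, 11 had a positive difference (50.5% of all genes tested). An unadjusted p under 0.05 was reached by 7, all higher in H3.3K27M (15.3% of all genes, 8.7% for higher). The acetyltransferase gene Ep300 had 3049, 5660 and 8522 normalized counts in the lowest, median and highest H3.3K27M library, against 2035, 3130 and 4817 in H3.3WT libraries (log2 difference 0.82 ± 0.23, SE). Of its 7 H3.3K27M libraries, 5 lay above all H3.3WT libraries. The Mediator genes Med13 and Med1 had differences of 0.54 ± 0.17 and 0.35 ± 0.13. Exons of these 12 genes have a median length of 9248 bp. With the length trend removed, the median difference was 0.16 and 2 of 12 had an unadjusted p under 0.05 (9.97% of all genes).

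Among 11 other corepressor genes, 9 had a positive difference (50.5% of all genes) and 3 an unadjusted p under 0.05 (15.3% of all genes), with a median of 0.28. Lcor, a ligand-dependent corepressor gene, had 87.6, 320 and 624.7 normalized counts in H3.3K27M libraries (lowest, median, highest), against 29.8, 87.5 and 268 in H3.3WT libraries (1.53 ± 0.45). Every H3.3K27M library lay above the H3.3WT median, the lowest barely so (87.56 against 87.46), and 4 of 7 above all H3.3WT libraries, at a low level throughout. Rere, an atrophin gene, lay at 0.46 ± 0.17 and its relative Atn1 at -0.70 ± 0.28. With the length trend removed, the median was 0.21 and 2 of 11 had an unadjusted p under 0.05 (9.97% of all genes). Rere then lay at 0.28 (limma unadjusted p = 0.0575).

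The complexes that hold HDAC1 and HDAC2 lay on both sides of 0. Over all genes tested, 50.5% had a positive difference and 15.3% an unadjusted p under 0.05. Of 16 SIN3 genes, 6 had a positive and 10 a negative difference (median -0.04), and 5 an unadjusted p under 0.05, among them Arid4a (0.70 ± 0.22), Phf12 (0.43 ± 0.14) and Sin3b, an alternative scaffold of the complex (-0.29 ± 0.12). Sin3b lay below the H3.3WT median in 7 of 7 H3.3K27M libraries. Of 11 NuRD genes, 7 were positive (median 0.05) and 3 had an unadjusted p under 0.05, namely the helicase gene Chd4 (0.29 ± 0.11), Gatad2b (0.39 ± 0.19) and the methyl-CpG binding gene Mbd2 (-0.39 ± 0.17). Of 12 CoREST and MiDAC genes tested, 8 were positive (median 0.23), and the 3 with an unadjusted p under 0.05 were the neuronal repressor gene Rest (0.66 ± 0.22), Rcor3 (0.58 ± 0.23) and Zmym2 (0.36 ± 0.16). With the length trend removed, the counts at an unadjusted p under 0.05 were 5 of 16, 0 of 11 and 1 of 12 (9.97% of all genes).

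None of the 12 other deacetylase genes had an unadjusted p under 0.05 on the authors' scale (15.3% of all genes). The 5 other classical genes had a median of -0.11, with Hdac6, the tubulin deacetylase gene, at -0.21 ± 0.13, Hdac8 at -0.28 ± 0.21 and Hdac10 at 0.10 ± 0.21. Their median was -0.29 once the length trend was removed, and 1 of 5, Hdac6 at -0.29, then had an unadjusted p under 0.05 in limma (9.97% of all genes). Hdac8 had one without library 3, at -0.41. The 7 sirtuin genes, which use NAD, had a median of -0.05, with Sirt1 at 0.29 ± 0.16, Sirt6 at -0.11 ± 0.15 and Sirt7 at -0.30 ± 0.20.

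Of 23 nuclear receptor genes, 13 had a positive difference (median 0.09) and 2 an unadjusted p under 0.05. The shares over all genes, here and for the targets and partners below, were 50.5% and 15.3%. Nr2c2, an orphan receptor gene, had 668, 2103 and 2741 normalized counts in H3.3K27M libraries (lowest, median, highest), against 244, 487 and 1552 in H3.3WT libraries (1.45 ± 0.40), and Ppara, a fatty acid receptor gene, had 22.5, 105 and 191 in H3.3K27M libraries, against 9.02, 19.0 and 94.7 in H3.3WT libraries (1.80 ± 0.50). Both lay above the H3.3WT median in 7 of 7 H3.3K27M libraries. Nr2e1, the neural stem cell receptor gene, had 0.836, 7.13 and 438 in H3.3K27M libraries, against 8.93, 318 and 572 in H3.3WT libraries (-2.53 ± 1.26), so that each group held libraries at low and at high levels. Of 17 tested target genes of nuclear receptors, 11 were positive (median 0.19) and 4 had an unadjusted p under 0.05, among them Hr (0.58 ± 0.19), itself the gene of a thyroid hormone receptor corepressor, the cholesterol exporter gene Abca1 (0.57 ± 0.20) and the lipid synthesis regulator Srebf1 (0.79 ± 0.33). Removing the length trend left the targets a median of 0.07, 3 of 17 had an unadjusted p under 0.05, and Abca1 lay at 0.34 (limma unadjusted p = 0.111). Of the 19 partners of the class IIa enzymes, 10 were positive (median 0.03) and 4 had an unadjusted p under 0.05, among them Ywhaq (-0.67 ± 0.25) and Ywhaz (-0.40 ± 0.18), which encode adaptors that hold phosphorylated class IIa enzymes in the cytoplasm, and the kinase gene Sik2 (1.13 ± 0.41). On the same length-corrected scale the median of the partners was -0.03 and that of the receptors 0.14, with 3 and 2 genes at an unadjusted p under 0.05. Over all genes, 9.97% had one on that scale.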

How the data were processed

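Tumour RNA was made into TruSeq mRNA libraries and sequenced as 50 bp single reads on a HiSeq instrument, per the labels' protocols. STAR 2.7, HTSeq, DESeq2 and mm10 are named per the submitters' processing notes. The deposited library columns hold a signal called normalized counts here. From the values, they are reads divided by 1 size factor per library (100% of values whole within 0.01 reads), and how the authors made them is not given in the sources used here. The deposited table also holds the authors' log2 fold change, p-value and FDR, and a score, per the file headers.

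Of 23563 lines, 208 with a repeated Ensembl ID were removed. Genes were named by GENCODE M21 (23322 IDs matched, 595 under another symbol than the table's), which also gave exon length and GC content. limma 3.58.1 in R 4.3.3 was fitted with a mean-variance trend to log2(value + 1) of 15007 genes (10 or more normalized counts in 7 or more libraries). Fold changes on this scale understate the change of low genes. Correlations used 100000 permutations within groups, two-sided. edgeR 4.0.16 and DESeq2 1.42.0 on recovered reads, other scalings, pseudocounts and filters, removed length or GC trends and left-out libraries were alternatives.

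The genes and lists were chosen with earlier results of these data known. Text names all 9 genes, in each list up to 3 tested genes with the smallest unadjusted p, the 5 most like Ncor1, and 3 genes of the model. 1 listed gene is not reported here. Per the design text, tumours were independent. The p-values rest on the spread of these libraries. The limit for a gene at 0 is 3 reads, for counting error only, or between 2.42 (library 16) and 8.52 normalized counts (library 8). On simulated counts for 14883 genes of the H3.3K27M against H3.3WT comparison, 18% of 1.5-fold, 54% of 2-fold and 98% of 4-fold and of 8-fold changes were called by limma, as were 7 unchanged genes. Changes were planted only in genes above a minimum mean count, and each gene was drawn independently, without the length slopes of the real libraries. The rates therefore do not cover low genes or variation that many genes share.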

Additional observations from a re-analysis of the deposited data

Results flagged for a closer look

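In 7 of 78 groups of libraries looked at, the highest or lowest library stood apart from the rest by Dixon's criterion, which chance meets in about 1 of 20 groups. Of the 7, 2 concern the corepressor and deacetylase genes themselves. Hdac1 had 1361 normalized counts in library 12, where the next H3.3K27M library had 1058. Hdac7 had 2071 in library 8, the shallowest library, where the next H3.3WT library had 1676.

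The others were Rcor3 with 2065 in library 12 (next H3.3K27M library 1204), Lcor with 268 in library 7 (next H3.3WT library 134), Hdac10 with 1347 in library 8 (next 886), Ppara with 94.7 in library 3 (next 46.7) and Srebf1 with 15322 in library 3 (next 7312). Library 8 held 2 of them, library 12 held 2 and library 3 held 2.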

How the results depend on the processing

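No paired analysis was possible because the table's library columns do not carry the replicate numbers of the labels. Those numbers are not described as pairs either. Each mouse received RCAS-H3.3K27M or RCAS-H3.3WT, and the design text gives the tumours as independent. None of the 9 genes passed the adjusted threshold under any of the 26 alternatives, a description only, since the genes were chosen on this contrast. Ncor1 stayed positive in all 26, between 0.25 (exon length trend removed) and 0.64 (without library 10), and without 1 library at a time it ranged from 0.43 to 0.64. Hdac4, Tbl1x and Tbl1xr1 changed sign with the length trend removed, and Hdac7 with the GC trend removed (0.09) or without library 15 or 16 (0.02 each).

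The count of the 9 genes at an unadjusted p under 0.05 was 1 to 2 over the fits without 1 library. For the listed genes that count was 31, against 19 with the length trend removed, 12 without libraries 6 and 8, and 19 to 35 without 1 library at a time (19 without library 14). Over all 15007 genes tested it was 2298, against 1496 of 15005 with the length trend removed and 1290 without libraries 6 and 8. Without 1 library at a time it ran from 1485 (library 14) to 2897 (library 7) over all genes. The counts thus moved over all genes as well, not only for the genes followed here. With DESeq2, 2 listed genes, Lcor and Ep300, passed the adjusted threshold, and over all genes DESeq2 called 108 and edgeR's quasi-likelihood test 0. limma called 13 genes without library 10, 1 without library 3 and 0 without any other single library. Pairs of the 9 genes past the adjusted threshold numbered 0 to 5 without 1 library. The cause of these shifts was not tested, except that fewer libraries entered the fits that left some out. Depth limits low genes most in library 8.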
